A study of Mus musculus with 2 samples.

Results

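Collagens are proteins in which 3 alpha chains wind into a triple helix, and each chain has a gene of its own. The genes described here are the collagen alpha chains measured by single-cell RNA sequencing in the epidermis of newborn mice. They were taken as all gene symbols of the form Col, number, a, number in the count matrices, without Col17a1 and Col7a1, the hemidesmosome and anchoring fibril collagens. This gave 42 chains of 27998 genes. Of these, 40 had at least 1 unique molecular identifier (UMI, a tag that marks 1 captured transcript) in the cells kept, 23 had at least 50 UMIs in each mouse and are described by their own values, 17 were detected below that, and Col6a4 and Col6a5 had no UMI in either mouse.

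The samples were 2 male C57BL/6J mice at postnatal day 0 (P0) named Chrm3 KO in the labels, in which the M3 muscarinic receptor gene Chrm3 is inactive. The epidermis was separated from the dermis, dead cells were removed, and each mouse gave 1 droplet library. Both groups of cells compared in every comparison below therefore carry the same Chrm3 KO genotype. WT libraries were not analysed here, so no value below is an effect of genotype. Chrm3 itself had 13 UMIs in the kept cells of mouse 1 and 19 in those of mouse 2, and whether they lie in a part of the gene that the deletion spares cannot be told from gene counts.

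Type IV collagen forms the network of the basement membrane under the epidermis and around hair follicles, built as heterotrimers of Col4a1 with Col4a2, Col4a3 with Col4a4 and Col4a5, or Col4a5 with Col4a6. Collagens I, III and V form fibrils of the dermis, collagen VI forms beaded filaments, and the FACIT collagens (XII, XIV, XVI and others) bind to the surface of fibrils. Collagens XV and XVIII are multiplexins, found at basement membrane zones and carrying heparan or chondroitin sulfate. Keratinocytes (KCs) and dermal cells both contribute to the zone where epidermis and dermis meet.

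After filtering, 7607 cells of mouse 1 and 11881 of mouse 2 remained, with medians of 10480 and 10580 UMIs per cell. The libraries share 127 barcodes, of which 34 are among the kept cells. The cells fell into 24 clusters. Of these, 18 were named from marker genes and each name means "-like", while 6 stayed unnamed and are called by their leading genes. The collagen chains and the partner genes given below were kept out of the genes used for clustering and naming, but the cells were grouped by other genes of the same cells. Levels are UMIs per 1000000 UMIs of a class (CPM), given for mouse 1 and mouse 2 in that order. A UMI counts 1 transcript end, so levels were not scaled by gene length and are compared between classes rather than between genes. Intervals and floors cover counting error only.

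Collagen chains were most abundant in a small class of dermal mesenchyme-like cells, followed by a pair of unnamed clusters and dividing hair follicle progenitors, and least abundant in spinous KCs, Langerhans cells and T cells. All 42 chains together held 158924 UMIs in the kept cells, and their level was 654 CPM as the mean of both mice. The sum was 4784 ± 818 CPM (SD, n = 2 mice) in dermal mesenchyme-like cells and 1864 ± 0.707 CPM in an unnamed cluster led by Tagln and Foxe1. Another unnamed cluster, with Gpc3 and Vcan among its leading genes, held 1162 ± 76.4 CPM. Hair follicle progenitors in S phase held 1105 ± 62.2 CPM and those in G2/M 941 ± 14.1 CPM, against 635.5 ± 44.1 CPM in resting ones. Within the interfollicular epidermis (IFE), basal cells in S phase held 729 ± 77.1 CPM and in G2/M 666 ± 62.2 CPM. Resting basal cells held 396 ± 64.5 CPM, transitional cells 210 CPM and spinous cells 64.8 ± 1.93 CPM on average. The collagen level was thus lower at each named step from dividing to spinous IFE cells, with a wider gap between the steps than between the mice except between S phase and G2/M. The mixed granular class, described below, held 498 CPM. Langerhans cells held 99.97 CPM and T cells 111 CPM on average. Without the likely doublets, Langerhans cells held 46.8 and 38.6 CPM, and T cells 32.6 CPM in mouse 1, while those of mouse 2 had no likely doublet and stayed at 111 CPM. The part of RNA free in the suspension in these levels was not tested.

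**Figure D1:**
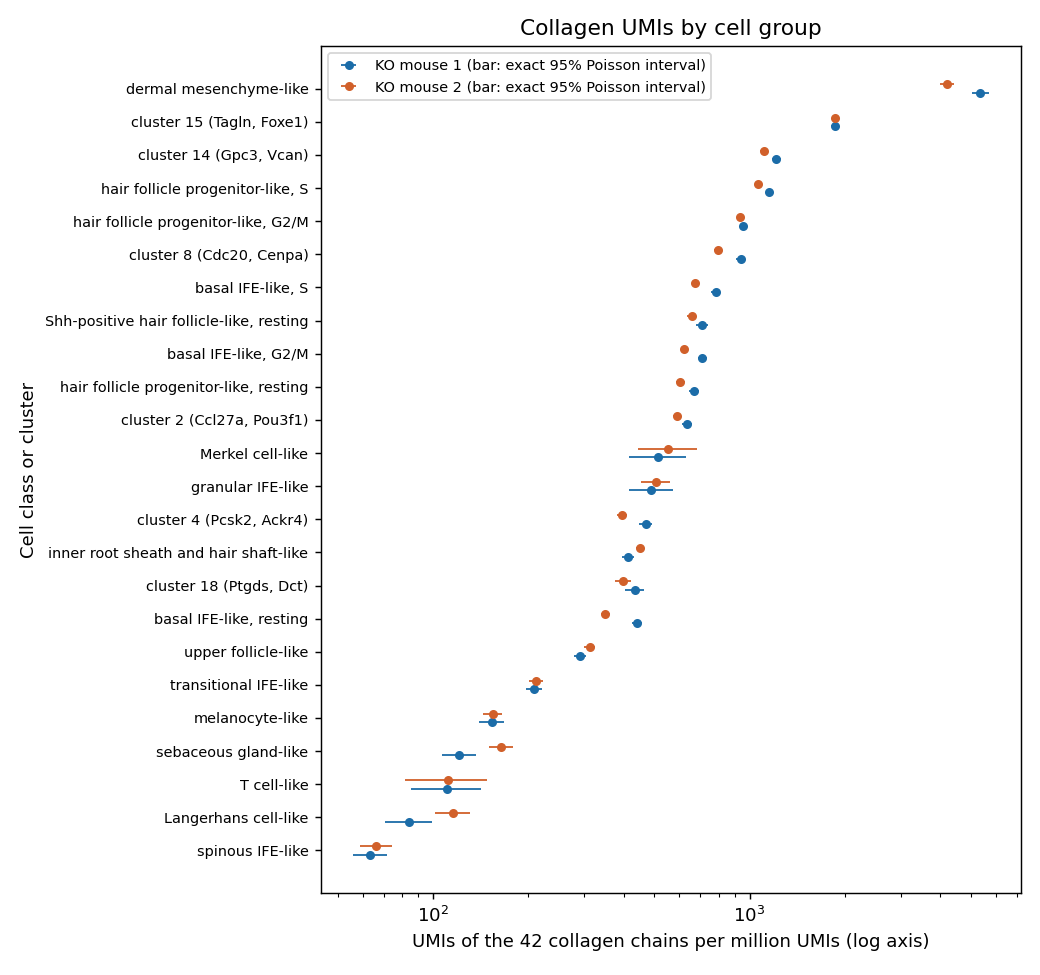
CPM of the 42 collagen chains summed (log axis) in each cell class or cluster, with 1 point per mouse and bars for the exact 95% Poisson interval. Dermal mesenchyme-like cells sit highest at a mean of 4784 CPM and spinous cells lowest at 64.8 CPM.

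The type IV family held 48.5% of the collagen UMIs, the FACIT and FACIT-like family 21.3%, the fibrillar family 18.3% and the multiplexins 8.79%. Short chain collagens held 2.13%, type VI 0.552% and the membrane collagens 0.372%. The makeup differed between classes. Resting basal IFE cells drew 24.01% of their collagen UMIs from Col18a1, 12.8% from Col12a1, 12.2% from Col16a1 and 11.4% from Col4a1. In hair follicle progenitors in S phase, 25.9% came from Col4a1 and 21.4% from Col14a1. Shh-positive hair follicle cells drew 32.5% from Col4a1 and 25.6% from Col27a1. Melanocytes drew 32.6% from Col12a1 and 20.7% from Col16a1. In dermal mesenchyme-like cells no chain passed 13.8%, the share of Col3a1.

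**Figure D2:**
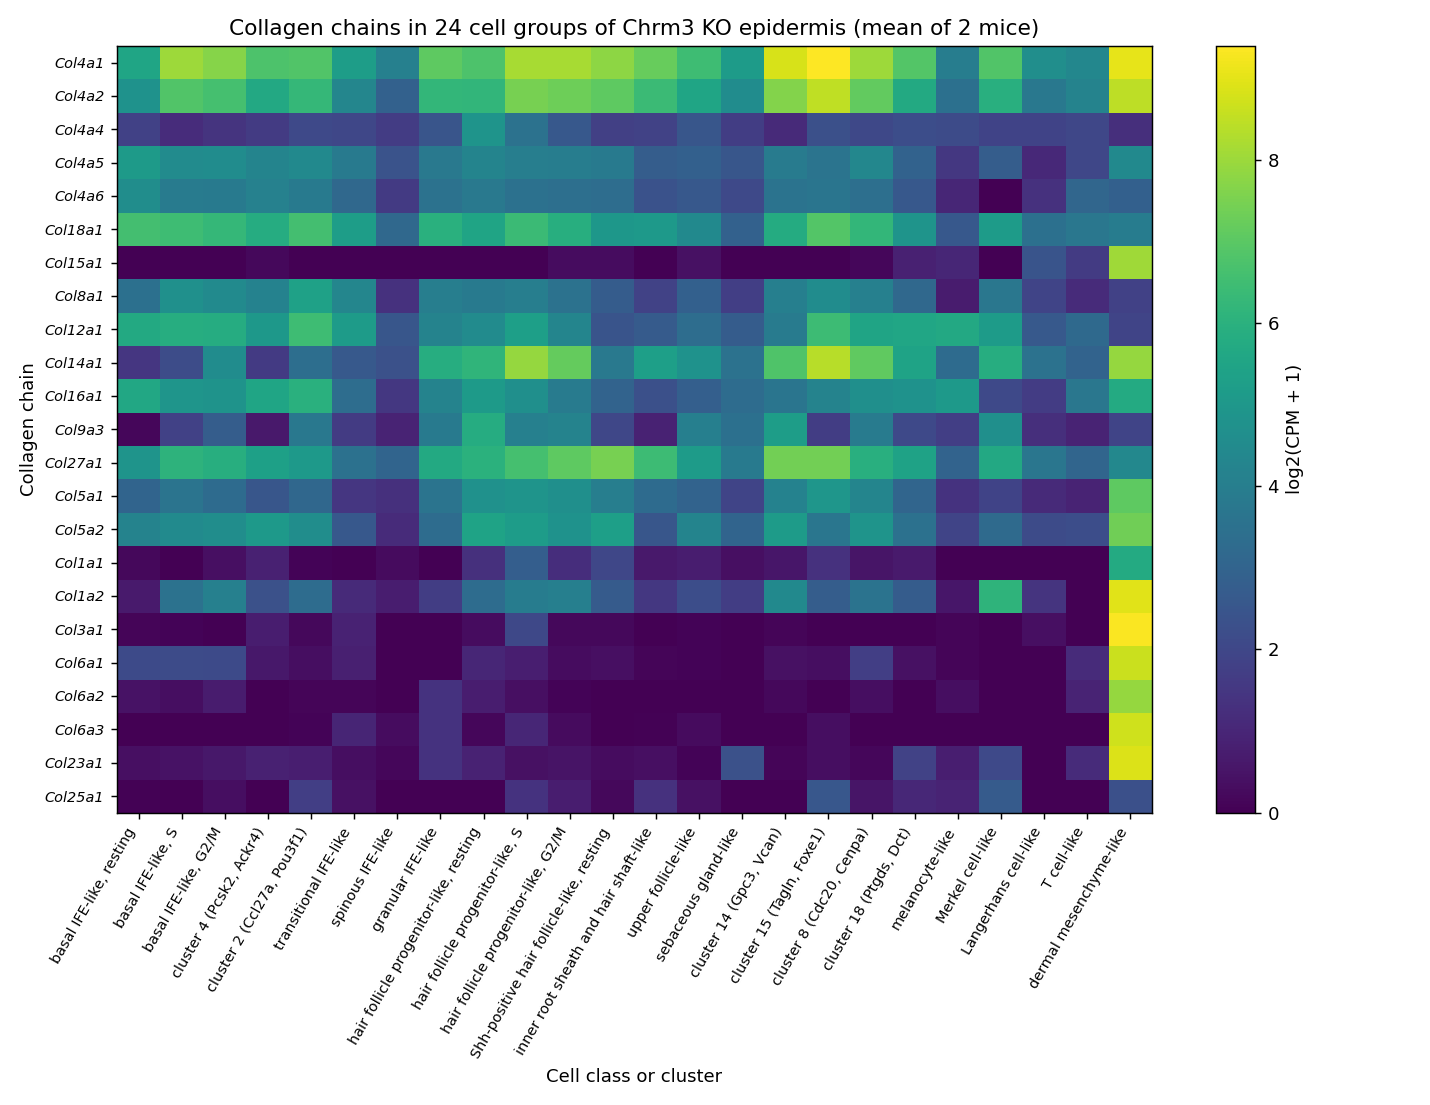
Mean level over both mice, as log2(CPM + 1), of the 23 described chains (rows) in 24 cell classes or clusters (columns). Col4a1 was above 10 CPM in all 24 columns in both mice, while Col6a1, Col6a2, Col6a3, Col1a1, Col3a1, Col23a1 and Col15a1 passed that level in both mice in dermal mesenchyme-like cells alone.

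Col4a1 and Col4a2 are the main chains of basement membranes. Col4a1 was highest in the Tagln and Foxe1 cluster, at 669 and 677 CPM, and next at 653 and 394 CPM in dermal mesenchyme-like cells and 473 and 426 CPM in the Gpc3 and Vcan cluster. It was at 289 and 282 CPM in follicle progenitors in S phase, 290 and 280 CPM in G2/M, 229 and 215 CPM in Shh-positive cells and 117 and 102 CPM in resting progenitors. In the IFE it was at 279 and 236 CPM in basal cells in S phase, 220 and 196 CPM in G2/M and 47.6 and 41.9 CPM in resting basal cells. The resting basal cells thus lay below every one of these classes in both mice. Melanocytes, with 13.8 and 16.2 CPM, and spinous cells, with 17.4 and 15.02 CPM, were at the low end, and their ranges overlapped. The granular class held 113 and 153 CPM, but it also held 4973 CPM of the basal keratin gene Krt14, against 931 CPM in spinous cells, so it is not a pure granular class. In edgeR's quasi-likelihood test of each class against the mean of the other 23, Col4a1 was higher by 2.65 ± 0.08 (log2 fold change ± SE, adjusted p = 5.93e-26) in the Tagln and Foxe1 cluster. It was lower by this test in resting basal cells (log2 fold change -1.17 ± 0.12, adjusted p = 2.41e-10).

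Col4a2 followed Col4a1. Its levels were 357 and 361 CPM in the Tagln and Foxe1 cluster, 407 and 297 CPM in dermal mesenchyme-like cells, 180 and 171 CPM in follicle progenitors in S phase and 29.0 and 24.4 CPM in resting basal cells. The first of these ranges lies inside the second, so their order was not set. Across the 24 classes the log2 levels of both chains had a Pearson correlation of 0.987 and a Spearman correlation of 0.986, given as a description since the classes share libraries. The Col4a1 level was 1.49 to 2.28 times that of Col4a2 in the 19 classes with both above 20 CPM. In single cells thinned to 3000 UMIs, 55.1% of cells with Col4a2 also held Col4a1, where 6510 of all 19183 thinned cells held Col4a1. These cells mix classes rich and poor in both chains, so the share does not measure pairing within a cell.

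Both genes start in opposite directions on chromosome 8 (GRCm38), with Col4a1 at chr8:11198423-11312826 on the minus strand and Col4a2 at chr8:11312805-11449287 on the plus strand. Their first exons overlap by 22 bases. The overlap is shown because both genes start within it, and capitals mark a GC box (GGGCGG, or CCGCCC on the other strand):
Col4a1 and Col4a2 overlap, chr8:11312805-11312826, plus strand: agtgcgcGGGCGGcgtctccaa

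The share of cells with a Col4a1 UMI was 99.5% in mouse 1 and 98.9% in mouse 2 in the Tagln and Foxe1 cluster. It was 79.8% and 80.5% in follicle progenitors in S phase, and 31.1% and 29.2% in resting basal cells. T cells, which should lack it, gave 7.69% and 10.5%. Median depths were 13856 UMIs per cell in the cluster, 9462.5 in S phase progenitors, 10446 in resting basal cells and 9061 in T cells. With every cell thinned to 3000 UMIs the order was kept, with 82.8% and 85.1%, then 52.4% and 53.0%, then 12.03% and 11.2%.

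**Figure D3:**
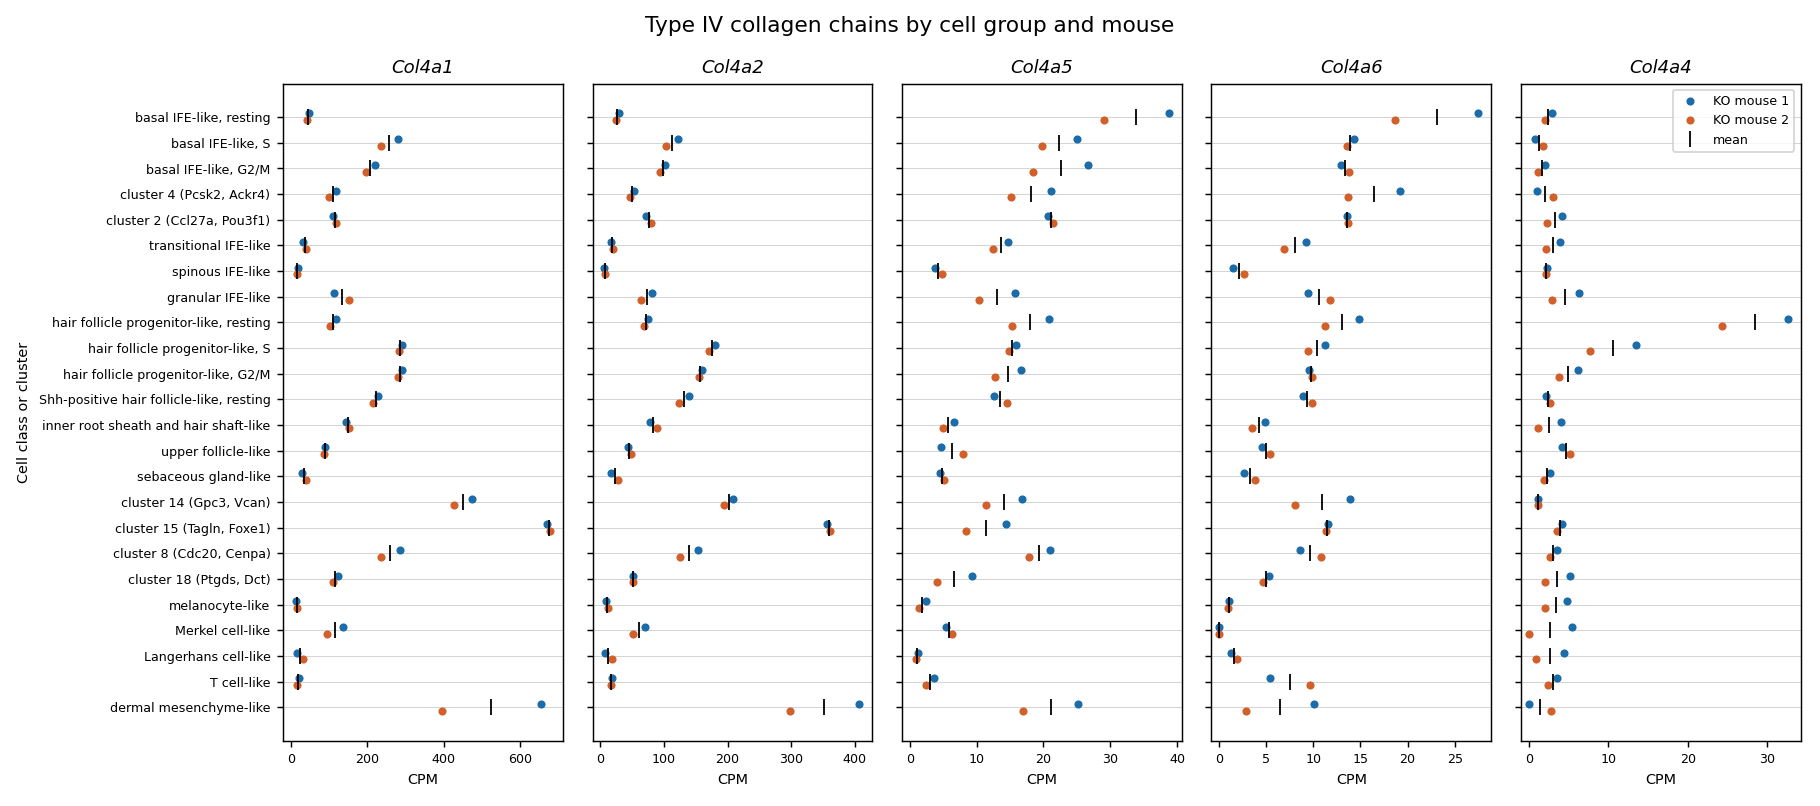
Level in CPM of the type IV chains in each class or cluster, with 1 point per mouse and a tick for the mean, each panel on its own axis. Col4a1 is highest in the cluster led by Tagln and Foxe1, where Col4a2 overlaps its level in dermal mesenchyme-like cells. Col4a5 and Col4a6 have their highest means in resting basal cells, and Col4a4 in resting hair follicle progenitors.

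Col4a5 and Col4a6, chains that assemble into 1 heterotrimer, were higher in resting than in dividing basal cells, the reverse of Col4a1 and Col4a2. In other classes both pairs could go the same way. In melanocytes Col4a5 was below the mean of the other classes (log2 fold change -2.61 ± 0.36), as was Col4a1 (-3.00 ± 0.16). Col4a5 was highest in resting basal cells at 38.8 and 29.0 CPM, above the 26.7 and 18.4 CPM of basal cells in G2/M and the 24.96 and 19.9 CPM of those in S phase. Resting follicle progenitors held 20.9 and 15.3 CPM, Shh-positive cells 12.6 and 14.6 CPM and spinous cells 3.73 and 4.79 CPM. Col4a6 was also highest in resting basal cells, at 27.5 and 18.7 CPM, but the next cluster, led by Pcsk2 and Ackr4, overlapped it at 19.2 and 13.6 CPM. Across classes their log2 levels correlated with r = 0.805 (Spearman 0.830), as a description. T cells held 5.37 and 9.68 CPM of Col4a6 from few UMIs, so levels below 10 CPM of this chain were not read. Against the mean of the other classes, resting basal cells were higher by 2.05 ± 0.14 for Col4a5 and 2.25 ± 0.16 for Col4a6 on the log2 scale. Col4a6 was above 10 CPM in both mice in only 7 of the 24 classes. The size of its difference and the correlation across classes were therefore not read.

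These genes also start in opposite directions, with RefSeq starts 1343 bases apart on chromosome X. Col4a5 lies at chrX:141475385-141689234 on the plus strand and Col4a6 at chrX:141165403-141474076 on the minus strand. The sequences that run up to each gene are shown 5′ to 3′ on the strand of that gene, from RefSeq on GRCm38.p6. Capitals mark a CCAAT box in the first, and a TATAA and a GC box in the second:
Col4a5, chrX:141475169-141475384, plus strand: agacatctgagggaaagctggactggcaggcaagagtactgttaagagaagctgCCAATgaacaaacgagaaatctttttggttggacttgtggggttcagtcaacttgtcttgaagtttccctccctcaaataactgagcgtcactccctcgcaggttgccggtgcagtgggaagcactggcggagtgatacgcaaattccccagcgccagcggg
Col4a6, chrX:141474077-141474326, minus strand: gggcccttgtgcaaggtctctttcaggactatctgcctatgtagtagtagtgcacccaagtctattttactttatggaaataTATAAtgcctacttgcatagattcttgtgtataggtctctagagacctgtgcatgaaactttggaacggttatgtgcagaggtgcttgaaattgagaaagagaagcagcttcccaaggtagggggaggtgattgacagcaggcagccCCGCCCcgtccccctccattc

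Promoter windows (250 bases before to 50 after a start) were held for 33 of the chains, as 36 windows. Searched on both strands, CCAAT was in 11 of the 36 (30.6%), against 37.4% of all 32851 promoters. The GC box was in 22 (61.1%) against 35.7%, TATAA in 6 (16.7%) against 24.9%, and the Lef/Tcf motif ATCAAAG in 1 (2.78%) against 3.73%. A match is a run of letters and not a measured binding site.

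Col4a4, a chain of the heterotrimer with Col4a3 and Col4a5, was concentrated in resting follicle progenitors. It stood at 32.5 and 24.3 CPM there, at 13.4 and 7.71 CPM in follicle progenitors in S phase and at 2.94 and 2.03 CPM in resting basal cells. The resting basal level is not above the 3.58 and 2.42 CPM of T cells. Against the other classes the difference in resting follicle progenitors was 3.34 ± 0.22 on the log2 scale. Col4a4 passed 10 CPM in both mice in this class alone, so the size was not read. Col4a3 had only 98 UMIs in all, and was highest in the same class, at 3.90 and 3.02 CPM from 17 and 18 UMIs.

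Col18a1, whose C-terminal fragment is endostatin, was expressed through the basal layer and much of the follicle. It stood at 116 and 119 CPM in the Tagln and Foxe1 cluster and 110 and 81.3 CPM in resting basal cells. An unnamed cluster led by Ccl27a and Pou3f1 held 106 and 85.6 CPM, which overlaps the resting basal values. Resting follicle progenitors held 44.5 and 42.4 CPM, Shh-positive cells 32.2 and 28.6 CPM, and melanocytes 4.81 and 5.16 CPM, below the 12.5 and 12.1 CPM of T cells. Like Col12a1, Col16a1, Col4a5 and Col4a6, Col18a1 was thus lower in both resting follicle classes than in resting basal cells in both mice.

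Col12a1 and Col16a1, FACIT collagens, shared a high level in the Ccl27a and Pou3f1 cluster and in resting basal cells. Col12a1 was at 97.6 and 77.8 CPM in that cluster, 55.5 and 45.9 CPM in resting basal cells, 21.5 and 23.1 CPM in resting follicle progenitors and 4.29 and 4.57 CPM in Shh-positive cells. Col16a1 was at 73.6 and 49.6, 51.2 and 44.9, 37.6 and 30.7, and 7.67 and 6.27 CPM in the same classes. The Tagln and Foxe1 cluster, with a mean of 85.05 CPM of Col12a1, was not separate from the Ccl27a and Pou3f1 cluster. Nor were dermal mesenchyme-like cells for Col16a1, with a mean of 53.1 CPM. Dividing basal cells held 55.3 CPM of Col12a1 when pooled, against 49.5 CPM in resting ones. Both chains were also present in melanocytes, pigment cells of neural crest origin that held little Col4a1 and Col18a1. Melanocytes held 52.9 and 47.4 CPM of Col12a1, and 32.0 and 31.7 CPM of Col16a1, and were higher than the mean of the other classes by 1.34 ± 0.15 (adjusted p = 1.16e-09) and 1.13 ± 0.15 (adjusted p = 7.88e-08) on the log2 scale by edgeR. Col12a1 was found in 29.2% (exact 95% interval 24.4 to 34.3) and 30.9% (27.0 to 34.9) of melanocytes. It was found in 1.92% and 10.5% of T cells and in 4.83% and 3.63% of Langerhans cells. Median depths were 8265.5 UMIs in melanocytes and 9704 in Langerhans cells. After thinning to 3000 UMIs, 12.9% and 13.8% of melanocytes held it. In melanocytes 6 of the 30 tested chains were higher (29.3% of all 14233 genes tested were) and 10 were lower (18.7% of all genes).

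Col14a1, a FACIT collagen of follicle and dermis, separated the follicle progenitors from the resting basal IFE. It was at 350 and 323 CPM in the Tagln and Foxe1 cluster, 261 and 214 CPM in follicle progenitors in S phase, 134 and 156 CPM in G2/M and 73.3 and 66.6 CPM in resting ones. Shh-positive cells held 11.7 and 14.4 CPM, and resting basal cells 2.13 and 1.52 CPM, the lowest class mean. The Shh-positive values lie below the 16.3 CPM of Col14a1 reached among Langerhans, T and spinous cells. Col9a3, a chain of the FACIT collagen IX, was highest in resting follicle progenitors at 55.2 and 56.8 CPM, then in the Gpc3 and Vcan cluster at 45.8 and 27.4 CPM. Resting basal cells had 1 UMI of Col9a3 in each mouse (0.164 and 0.101 CPM), and Shh-positive cells 4.29 and 1.69 CPM. Both chains were therefore high in the follicle progenitor classes and low in both resting basal and Shh-positive cells.

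Col27a1, a fibrillar collagen best known from cartilage, was highest in Shh-positive follicle cells at 179 and 171 CPM. The Gpc3 and Vcan cluster (158 and 177 CPM) and the Tagln and Foxe1 cluster (162 and 171 CPM) overlapped this level. Resting follicle progenitors held 61.9 and 65.1 CPM, resting basal cells 29.4 and 26.8 CPM and dermal mesenchyme-like cells 20.1 and 19.8 CPM. Shh-positive cells exceeded the mean of the other classes by 2.15 ± 0.10 on the log2 scale (adjusted p = 1.23e-19, edgeR).

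Col8a1, a short chain collagen of sheet-like networks, was highest in the Ccl27a and Pou3f1 cluster at 43.3 and 36.8 CPM. Basal cells held 23.9 and 26.1 CPM in S phase, 20.7 and 22.8 CPM in G2/M and 12.4 and 7.61 CPM at rest. The chain was not confined to basal cells. Transitional cells held 116 and 137 UMIs of it and exceeded the mean of the other classes by 1.55 ± 0.19 on the log2 scale (adjusted p = 1.67e-08, edgeR). Col5a1 and Col5a2, the chains of collagen V, which starts fibrils, were in follicle progenitors at rest at 27.5 and 23.8 CPM and at 46.0 and 38.7 CPM. In resting basal cells they were at 7.36 and 7.10 CPM and at 21.1 and 13.4 CPM. Both were higher in dermal mesenchyme-like cells than in any KC class, at 161 and 108 CPM for Col5a1 and 196 and 130 CPM for Col5a2. Col25a1, a membrane collagen, stayed at or below 10 CPM in at least 1 mouse of every class.

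**Figure D4:**
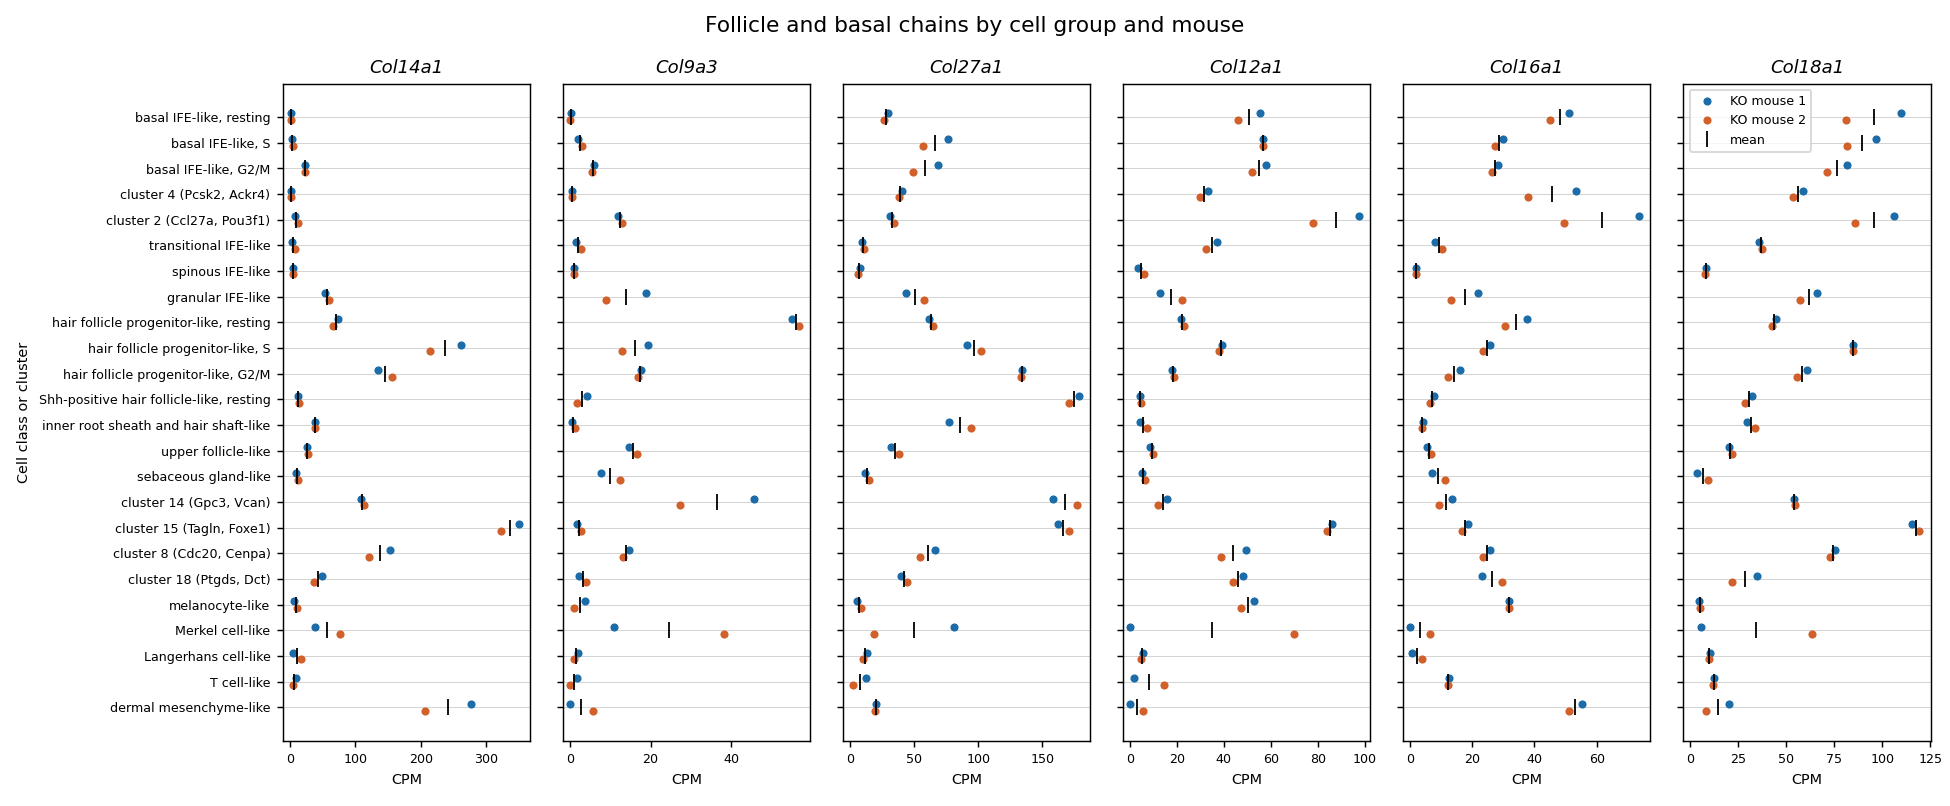
Level in CPM of other described chains in each class or cluster, with 1 point per mouse and a tick for the mean, each panel on its own axis. The highest mean of Col27a1 was 174.7 CPM in Shh-positive cells, that of Col9a3 56.0 CPM in resting follicle progenitors and that of Col12a1 87.7 CPM in the cluster led by Ccl27a and Pou3f1.

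The chains of dermal fibrils and filaments were highest in 105 dermal mesenchyme-like cells (38 and 67). Collagen VI was at 467 and 337 CPM there for Col6a1, 261 and 221 CPM for Col6a2 and 518 and 317 CPM for Col6a3, which had no UMI in resting basal cells. Col3a1 stood at 694 and 615 CPM, Col1a2 at 472 and 538 CPM and Col1a1 at 55.3 and 51.0 CPM. Col23a1, a membrane collagen, stood at 518 and 436 CPM, and Col15a1, the second multiplexin, at 302 and 229 CPM. These 105 cells held 67.6% to 82.0% of all UMIs of Col6a2, Col6a3, Col3a1, Col23a1 and Col15a1, as means over the mice, and 48.0% of those of Col6a1. They were the highest class for 10 of the 23 described chains. Some of these chains, such as Col6a3 with 44 UMIs over all KC classes, reached the limit for description only through this class.

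The name was given from marker genes, so the values of 13 dermal mesenchyme markers describe the class and do not test its label. Of these markers, 11 were detected in both mice and Meox2 in neither. The markers summed to 7006 and 6157 CPM, against means of 17.7 to 315 CPM in the other classes. Markers of other cells were also present. All 9 basal IFE markers were detected and summed to 5076 and 5859 CPM, Krt14 stood at 2440 CPM, 14.3% of the cells were among the likely doublets, and the median of 4179 UMIs was 0.395 of that of their samples. The endothelial defining genes Cdh5, Emcn and Tie1 were at 0. The part of KC RNA in the type IV levels of this class was not tested.

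The Tagln and Foxe1 cluster, with the most Col4a1, held 557 cells. Its summed level of mural cell markers was 385 and 280 CPM, with the defining genes Rgs5, Des and Kcnj8 at 0, and its sum of dermal mesenchyme markers was 15.4 and 28.4 CPM. It held 654 CPM of Lhx2, a follicle progenitor marker, and 1183 CPM of Krt14. In this cluster 11 of the 30 tested chains were higher than the mean of the other classes (22.7% of all genes were) and none was lower by edgeR (12.7% of all genes).

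Merkel cells, touch receptor cells of the epidermis, numbered 39 and gave few UMIs. Leaving out likely doublets took the class of mouse 1 from 20 cells with 95 collagen UMIs (514.5 CPM) to 15 cells with 22 (249.9 CPM), and left the 19 cells of mouse 2 with their 87 UMIs (553 CPM). Col1a2 was at 86.7 and 50.9 CPM from 16 and 8 UMIs, and higher than the mean of the other classes by 3.77 ± 0.48 on the log2 scale (adjusted p = 1.53e-07, edgeR). Without the likely doublets it was at 113.6 and 50.9 CPM from 10 and 8 UMIs, with a difference of 4.02 ± 0.54 (adjusted p = 4.97e-07). Col19a1, below the limit for description, was at 37.9 and 31.8 CPM from 7 and 5 UMIs, and from 3 and 5 UMIs without those doublets. Among the other chains below that limit, the largest total was 114 UMIs for Col26a1, at 116 and 99.1 CPM in dermal mesenchyme-like cells. Col9a2, Col13a1 and Col11a1 were also highest there, at 45.2 and 25.5, 30.2 and 17.0, and 20.1 and 34.0 CPM. Col5a3 was highest in melanocytes, at 4.81 and 3.06 CPM from 14 and 16 UMIs.

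The first comparison asked which chains differ between resting basal and suprabasal IFE cells (the mean of the transitional, spinous and granular classes). Of the 30 chains tested, 12 passed an adjusted p of 0.05 by edgeR, 10 higher in basal cells and 2 lower, against 34.5% of all 14233 genes tested (17.6% higher and 17% lower). The median log2 fold change was 0.34 over the chains and 0.0097 over all genes. Col16a1 (2.86 ± 0.19, adjusted p = 5.67e-15), Col4a6 (1.99 ± 0.20, adjusted p = 3.84e-10), Col4a5 (1.91 ± 0.21, adjusted p = 1.84e-09) and Col18a1 (1.86 ± 0.14, adjusted p = 1.97e-13) were higher in basal cells. Col5a2 (2.15 ± 0.28), Col12a1 (1.78 ± 0.19), Col5a1 (1.16 ± 0.30) and Col27a1 (0.82 ± 0.17) were higher too. The pooled suprabasal levels were 6.92 CPM for Col16a1, 3.78 CPM for Col5a2, 2.15 CPM for Col5a1 and 11.1 CPM for Col27a1. Langerhans, T and spinous cells reached 12.5, 7.26, 2.395 and 13.3 CPM of these chains, so the sizes of their differences were not read. The Col4a6 difference is taken against a suprabasal level of 5.84 CPM (136 UMIs), which is in the range T cells held, so its size was not read. Col6a1 was also higher, but from 54 UMIs (3.38 CPM) against 10 (0.430 CPM), and so was Col19a1, a low chain. Col14a1 was lower in basal cells (-2.62 ± 0.34, adjusted p = 1.02e-07), with 28 UMIs (1.75 CPM) against 169 (7.26 CPM). That suprabasal level lies below the 16.3 CPM of Col14a1 reached among Langerhans, T and spinous cells, so the size of this difference was not read either. Col9a3 was lower, with 2 UMIs against 50, a ratio of 0.0583 with an exact 95% interval of 0.00687 to 0.222. Col4a1 did not pass the test (0.04 ± 0.14, adjusted p = 0.923), nor did Col4a2 (0.35 ± 0.15, adjusted p = 0.0654). With the mixed granular class left out of the suprabasal mean, Col4a1 was 0.76 higher in basal cells (adjusted p = 3.22e-05) and Col4a2 1.13 higher, both past the threshold. The Col14a1 difference was then -1.52 (adjusted p = 0.00135), and Col5a1 was 2.00 and Col27a1 1.58 higher. At a mitochondrial limit of 5% Col14a1, Col9a3, Col5a1 and Col27a1 were not called (adjusted p = 0.139, 0.119, 0.201 and 0.828), and no chain was called lower. Without integration of the mice, Col4a1 was lower in basal cells (-0.52) and past the threshold, so its direction in this comparison was not settled, and Col27a1 was not called (0.30, adjusted p = 0.208).

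Partners of the collagens were read in the same fit from lists of genes grouped by known role, and stand beside the 17.6% of all genes called higher and 17% called lower. Of 20 tested basement membrane partners, 12 were higher and 1 lower in basal cells, led by the laminin 332 chain genes Lamb3 (2.40 ± 0.15) and Lama3 (2.06 ± 0.15) and by Agrn (2.07 ± 0.12), the gene of agrin. Of 25 tested genes of collagen biosynthesis and processing, 12 were higher and 1 lower. Those included Sparc, a collagen chaperone (3.87 ± 0.23), and the modifying enzymes P3h1 (3.41 ± 0.31), Plod1 (1.90 ± 0.21) and P3h2 (1.84 ± 0.24). The list of 8 tested genes of collagen degradation also holds inhibitor genes. Of these 8 genes, 1 was higher, the membrane protease Mmp14 (1.91 ± 0.11), and 3 were lower. Of 8 tested receptor genes 2 were higher, the integrin subunits Itga2 (4.91 ± 0.67) and Itgb1 (1.81 ± 0.10), and 2 were lower.

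The second comparison set dividing basal cells (the mean of the S phase and G2/M classes) against resting basal cells. Here 11 of 30 chains passed, 7 higher and 4 lower in dividing cells, against 23.8% of all genes (12.8% higher and 10.9% lower). The main basement membrane pair was higher, Col4a1 by 2.18 ± 0.14 (adjusted p = 2.37e-15) and Col4a2 by 1.80 ± 0.13 (adjusted p = 1.32e-13) on the log2 scale. The other pair was lower, Col4a5 with a log2 fold change of -0.80 ± 0.16 (adjusted p = 0.000276) and Col4a6 with -0.92 ± 0.16 (adjusted p = 1.91e-05). With the Pcsk2 and Ackr4 cluster counted as resting basal, Col4a5 was not called (-0.27, adjusted p = 0.179) and Col4a6 was (-0.61). At a mitochondrial limit of 5% Col4a6 was not called (-0.69, adjusted p = 0.458) and Col4a5 was (-1.05). Col16a1 (-0.98 ± 0.14) and Col18a1 (-0.40 ± 0.12) were lower as well, and Col12a1 did not pass (-0.04 ± 0.15, adjusted p = 0.913). With that cluster counted as resting basal, Col18a1 was not called (0.043, adjusted p = 0.852). Col14a1 (2.20 ± 0.35), Col8a1 (1.09 ± 0.21) and Col27a1 (0.95 ± 0.15) were higher. The pooled Col14a1 levels were 13.5 CPM in dividing and 1.75 CPM in resting cells. Both lie below the 16.3 CPM of Col14a1 reached among Langerhans, T and spinous cells, so its size was not read. Col1a2 rose from 9 UMIs (0.564 CPM) to 361 (12.7 CPM), with 12.4 and 9.04 CPM in S phase and 17.96 and 13.7 CPM in G2/M. Col9a3 rose from 2 UMIs to 118, a ratio of 33.2 with an exact 95% interval of 8.99 to 277. Levels of Col14a1 (22.6 and 22.9 CPM) and Col9a3 (6.05 and 5.43 CPM) were highest among basal classes in G2/M, the cluster with 13.3% likely doublets. Without the likely doublets the Col14a1 difference was 1.203 with an adjusted p of 0.052. The S phase class alone gave 9 called chains (6 higher and 3 lower), where 13.9% of all genes were called, 8.53% higher and 5.4% lower, and the G2/M class 11 (7 higher and 4 lower), where 26.3% were, 14.1% higher and 12.2% lower.

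Partner genes in this comparison stand beside the 12.8% of all genes called higher and 10.9% called lower. Of the basement membrane partners 1 of 20 was higher, Hspg2, the gene of perlecan (0.83 ± 0.10), and 1 lower, Fras1 (-1.58 ± 0.12). Of the biosynthesis genes 2 of 25 were higher and 6 lower, with Plod1 at 1.05 ± 0.14 and P3h2 at -1.35 ± 0.19. Of the degradation genes 3 of 8 were higher, led by the inhibitor gene Timp3 (2.04 ± 0.19), and 1 was lower. Of the receptor genes 0 of 8 were higher and 2 lower by edgeR, Itga2 (-1.19 ± 0.29) and Ddr1 (-0.48 ± 0.14).

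The third comparison set resting hair follicle cells (the mean of progenitor and Shh-positive classes) against resting basal IFE cells. Here 17 of 30 chains passed, 10 higher and 7 lower in the follicle, against 36.9% of all genes (18.5% higher and 18.4% lower). The median was 1.18 over the chains and 0.00 over all genes. The sides differed in mitochondrial share. Cells under 5% mitochondrial UMIs were 16 of 557 and 120 of 902 in resting basal cells. They were 353 of 573 and 613 of 757 in resting progenitors, and 80 of 313 and 244 of 590 in Shh-positive cells. The calls of this comparison under that limit are not given here. Col4a1 (1.59 ± 0.13), Col4a2 (1.65 ± 0.13), Col27a1 (1.69 ± 0.15), Col5a1 (1.21 ± 0.22), Col5a2 (1.04 ± 0.19) and Col14a1 (3.88 ± 0.30) were higher. The size for Col14a1 was not read. Its resting basal level of 1.75 CPM lies below the 16.3 CPM reached among Langerhans, T and spinous cells. Col9a3 stood at 604 UMIs against 2, a ratio of 247 with an exact 95% interval of 68.2 to 2047. Col1a2 was higher by 3.41 ± 0.42, from 149 UMIs against 9, and Col1a1 from 42 against 3, a ratio of 11.5 with an interval of 3.67 to 57.8. Col4a4 was higher by 1.58 ± 0.41 (adjusted p = 0.0022), and by 3.37 with the Shh-positive cells left out. Its resting basal level of 2.38 CPM lies below the 4.43 CPM of Col4a4 reached among Langerhans, T and spinous cells. The size for Col4a4 was therefore not read. Col12a1 (-2.54 ± 0.19, adjusted p = 6.54e-14), Col16a1 (-1.87 ± 0.16), Col18a1 (-1.61 ± 0.13), Col4a5 (-1.31 ± 0.18), Col4a6 (-1.25 ± 0.17), Col6a1 (-2.73 ± 0.54) and the low chain Col19a1 were lower in the follicle. The directions of the 6 described chains among these were the same with the Shh-positive cells left out, where Col12a1 was at -1.33 and Col16a1 at -0.67. The Col6a1 difference came from 13 UMIs (0.667 CPM) in the follicle against 54 (3.38 CPM), so its size was not read.

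Partner genes here stand beside 18.5% of all genes called higher and 18.4% lower. Of the basement membrane partners 8 of 20 were higher in the follicle and 6 lower, with Frem1 at 6.52 ± 1.45 and Fras1 at -1.66 ± 0.13. Of the biosynthesis genes 4 of 25 were higher, led by Plod2 (2.08 ± 0.33), a lysyl hydroxylase, and 8 lower, led by Sparc (-3.35 ± 0.23). Of the degradation list 3 of 8 were higher, the protease gene Mmp2 (1.99 ± 0.28) and the inhibitor genes Timp2 (1.95 ± 0.19) and Timp3 (1.63 ± 0.19), and 1 lower. Of the receptor genes 2 of 8 were higher, Itga1 (1.92 ± 0.47) and Adgrg1 (1.44 ± 0.11), and 3 lower.

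In the hair follicle, 10 of 30 chains differed between dividing and resting cells, 9 higher and 1 lower in dividing cells, against 25.2% of all genes (14.6% higher and 10.6% lower). Col14a1 had the smallest p (2.60 ± 0.13, adjusted p = 3.03e-17), followed by Col4a1 (0.87 ± 0.10, adjusted p = 4.61e-09) and Col4a2 (0.77 ± 0.09, adjusted p = 1.78e-08). Col12a1 (1.40 ± 0.17), Col1a2 (1.03 ± 0.18), Col18a1 (0.95 ± 0.11), Col8a1 (0.56 ± 0.20) and Col5a1 (0.42 ± 0.15) were higher and Col5a2 was lower (-0.38 ± 0.14). Col25a1 rose from 1 UMI to 52, a ratio of 19.8 with an exact 95% interval of 3.40 to 798. The Shh-positive class entered the resting side only, since it had no dividing counterpart. Without it the Col14a1 difference was 1.36 in place of 2.60, and Col27a1 was higher by 0.79, both past the threshold. Col4a1 was then higher by 1.33 and Col4a2 by 1.16, and Col4a4 was lower (-2.04), Col9a3 lower (-1.81) and Col16a1 lower (-0.92), all past the threshold. Without it Col12a1 (0.19), Col8a1 (-0.14) and Col5a1 (-0.02) no longer passed.

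For the follicle cycle, the partner lists stand beside 14.6% of all genes called higher and 10.6% lower. Of the basement membrane partners 3 of 20 were higher in dividing cells and 6 lower, among them Smoc2 (-1.07 ± 0.12) and the laminin gene Lama3 (-0.83 ± 0.12). Of the biosynthesis genes 2 of 25 were higher and 4 lower, with Crtap, a cofactor of prolyl 3-hydroxylation, at 0.49 ± 0.12 and Plod1 at -0.56 ± 0.13. Of the degradation list 3 of 8 were higher, the inhibitor genes Timp1 (2.13 ± 0.47), Timp3 (0.95 ± 0.14) and Timp2 (0.72 ± 0.11). The 2 lower ones included the protease gene Mmp2 (-0.92 ± 0.18). Of the receptor genes 1 of 8 was higher, Itga1 (2.22 ± 0.22), and 2 lower.

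The dividing contrast itself differed between follicle and IFE for 10 of 30 chains, 5 in each direction, against 11.1% of all genes (5.4% positive and 5.69% negative), in the interaction term of the same fit. It was smaller in the follicle for Col4a1, with a log2 difference of -1.31 ± 0.16 (adjusted p = 2.25e-07) and for Col4a2, with -1.02 ± 0.16 (adjusted p = 1.26e-05), and also for Col27a1, Col1a2 and Col9a3. The signed difference, follicle minus IFE, was positive for Col18a1 (1.35 ± 0.17, adjusted p = 2.64e-07), Col12a1, Col16a1, Col4a6 and Col4a5. Of these, Col16a1, Col4a5 and Col4a6 were lower in dividing than in resting IFE cells and were not called in the follicle. Col4a6 stood at 9.89 CPM in dividing follicle cells, below the limit of 10 CPM for this chain. The size of its difference was therefore not read. With the Shh-positive class left out, 6 chains differed. The share of all genes called in that setting is not given here, so this count does not set the chains apart from other genes. Col4a1 (-0.85), Col4a2 (-0.64), Col18a1 (1.04), Col1a2 (-3.63) and Col9a3 (-6.33) still did, Col8a1 (-1.23) was added, and Col12a1, Col16a1, Col27a1, Col4a5 and Col4a6 no longer passed. Of the partners, Plod1 (-1.61 ± 0.19), P3h2 (1.54 ± 0.30), Fras1 (1.41 ± 0.17) and Mmp2 (-2.20 ± 0.34) were among those whose contrast differed, with 2 higher and 4 lower of 20 basement membrane partners and 4 and 3 of 25 biosynthesis genes. Of 8 degradation genes 0 were higher and 2 lower by edgeR, and of 8 receptor genes 1 was higher, Itga1 (2.14 ± 0.64), and 0 lower.

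**Figure D5:**
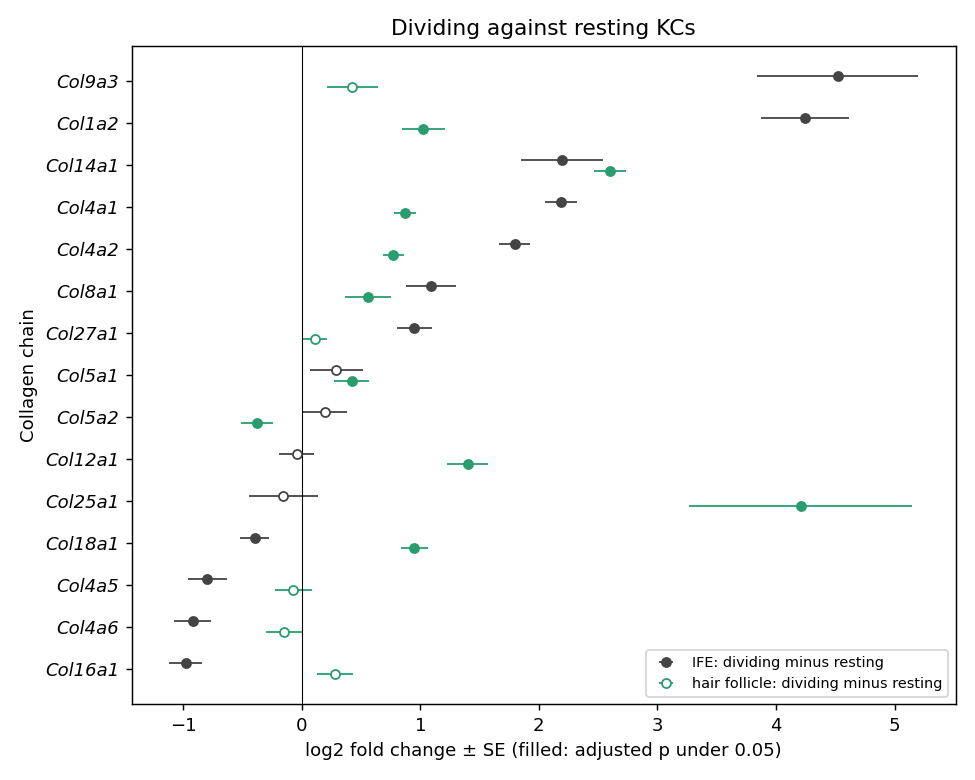
Log2 fold change ± SE of described chains between dividing and resting KCs, in basal IFE and in the hair follicle, with filled points for an adjusted p under 0.05. Col4a1 and Col4a2 lie right of 0 in both, while Col4a5 and Col4a6 lie left of 0 and pass the threshold in the IFE but not in the follicle. The Col4a6 level in dividing follicle cells was 9.89 CPM, below the limit of 10 CPM for reading this chain.

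Dermal mesenchyme-like cells were last set against the mean of all KC classes. Here 23 of 30 chains passed, 20 higher and 3 lower, against 26.8% of all genes (13.7% higher and 13.1% lower). The median was 3.94 over the chains and -0.22 over all genes, so a shift near 0 is slightly above the median gene. Of the 23 described chains 18 passed, 15 higher and 3 lower, with a median of 3.145. Some chains, such as Col13a1 with 6 and 6 UMIs in this class, passed the filter on low counts through it. Their being higher was thus set in advance, so these counts and medians are not read as a result about the chains. Many KC sums had no UMI of the dermal chains, so pooled levels are given in place of fitted folds. Col3a1 was at 643 CPM in dermal mesenchyme-like cells against 0.450 CPM in KCs, Col6a3 at 389 against 0.254, Col15a1 at 255 against 0.0922, Col6a2 at 235.5 against 0.184 and Col23a1 at 465.5 against 0.467 CPM. Col6a1 was at 384.0 against 1.08 CPM and Col1a1 at 52.5 against 1.26 CPM. Fitted differences were 6.67 ± 0.19 for Col1a2, 3.51 ± 0.29 for Col5a1, 3.16 ± 0.24 for Col14a1, 3.14 ± 0.28 for Col5a2, 2.19 ± 0.15 for Col4a2, 1.86 ± 0.14 for Col4a1 and 1.66 ± 0.36 for Col16a1 on the log2 scale. Col25a1 also passed, but from 2 UMIs in dermal mesenchyme-like cells, a ratio of 6.98 with an exact 95% interval of 0.833 to 25.96 that includes 1. It was not called without integration (adjusted p = 0.0839), and at a mitochondrial limit of 5% it did not pass the filter on low counts. Col18a1 (-1.98 ± 0.48) and Col27a1 (-1.55 ± 0.42) were lower, and Col12a1 had 2 UMIs there, a ratio of 0.133 with an exact 95% interval of 0.0161 to 0.479.

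Among the partners, beside 13.7% of all genes called higher and 13.1% lower, 9 of 20 basement membrane genes were higher in dermal mesenchyme-like cells and 5 lower, with Nid1 (nidogen, 9.27 ± 0.27) and the laminin gene Lama2 (8.86 ± 0.27) among the former. Of the biosynthesis genes 15 of 25 were higher and 1 lower, including Pcolce (9.31 ± 0.47), an enhancer of procollagen processing, and Plod2 (7.33 ± 0.17). Of the degradation list 3 of 8 were higher, Ctsk (9.26 ± 0.40), the inhibitor gene Timp2 (2.93 ± 0.24) and Mmp14 (1.30 ± 0.16). Of the receptor genes 4 of 8 were higher, with the collagen receptor Ddr2 at 7.26 ± 0.44, and 2 lower. These partner values are fitted folds given without the KC levels, so the sizes of the largest were not read.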

How the data were processed

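Epidermal cells of 2 Chrm3 KO mice were sequenced in 1 10x Genomics 3′ library each. The labels name chemistry v1 and the study's methods v3.1. Per the labels, the authors ran Cell Ranger 3.0.2 on mm10 and deposited UMI counts for each gene in each barcode, without normalization. The matrices hold 10816 barcodes (109756784 UMIs) and 15867 barcodes (166441732 UMIs). The cell filter required between 900 and 7700 detected genes and less than 10% of UMIs from mitochondrial genes. Seurat 5.3.0 (R 4.3.3) integrated the mice and clustered the cells (2000 variable genes, 30 dimensions, resolution 0.8). Clusters were named from marker lists among their 10 top genes or by mean enrichment of at least 0.5 on the log2 scale. The limits for names and phases, the removal of a name from a cluster with over 25% likely doublets, and the doublet rule were set after the clusters had been seen. Scrublet (scanpy 1.11.5) by its own threshold called 2 and 416 doublets, and the former is too few to trust, so the top 5% of scores in each mouse were taken as likely doublets and kept, with their removal as an alternative.

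UMI counts were summed per mouse and class (at least 15 cells, 48 sums), since cells are not replicates and n is 2 mice. All sums were fitted together in edgeR 4.0.16 (TMM, filterByExpr, quasi-likelihood F-test, Benjamini-Hochberg over 14233 genes; 24 residual degrees of freedom). The 6 unnamed clusters entered it as classes of their own, where the plan had named classes only, and leaving them out was an alternative. The fit was tested on simulated counts. Other alternatives were DESeq2 1.42.0, its size factors, no filter, a mouse block, another resolution, no integration, a mitochondrial limit of 5%, and 1 mouse left out. Leaving out the Shh-positive class, the granular class, the unnamed clusters or shared barcodes, and counting the Pcsk2 and Ackr4 cluster as basal, were chosen after seeing the data. A number marks 1 animal, which pairs the classes. The mouse difference correlated between classes with r from -0.034 to 0.272 (median 0.077). Single cells were thinned to 3000 UMIs for shares of cells with a UMI, and 19183 of 19488 cells were deep enough. A count of 0 allows up to 3 counts. Gene positions came from GENCODE M21 (GRCm38) and promoters from RefSeq. Genes were named where past an adjusted p of 0.05, with at least 50 UMIs in each mouse for chains, and up to 4 for each partner list. The chains, lists and comparisons were chosen with earlier results of these data known. Python 3.11.15 and scipy 1.17.1 gave the exact intervals.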

Additional observations from a re-analysis of the deposited data

Results flagged for a closer look

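The difference of the dividing contrast between hair follicle and IFE was past an adjusted p of 0.05 (edgeR interaction term, n = 2 mice) for 10 chains. Each had the same sign in each mouse alone, but the chains were called from these same 2 mice, so this adds no support. On the log2 scale, follicle minus IFE, it was -4.09 for Col9a3, -3.22 for Col1a2, -1.31 for Col4a1, -1.02 for Col4a2 and -0.84 for Col27a1. It was 0.73 for Col4a5, 0.77 for Col4a6, 1.26 for Col16a1, 1.35 for Col18a1 and 1.44 for Col12a1. For Col9a3 the resting basal side held 2 UMIs in all, so the fitted value depends on the prior count. Col4a6 stood at 9.89 CPM in dividing follicle cells, below the limit of 10 CPM for this chain, so the size of its value was not read. The values with the Shh-positive class left out stand beside these results above.

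The barcodes removed by the cell filter also held collagen UMIs, which no comparison used. In mouse 1 the 3209 removed barcodes held 762.2 CPM (11211 UMIs), and in mouse 2 the 3986 removed barcodes held 643.3 CPM (11321 UMIs), where a count of 0 would allow 0.204 and 0.171 CPM.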

How the results depend on the processing

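Over 15 alternatives, 966 of the 1015 recomputed values of the 76 called differences of described chains kept their direction and, where a test was possible, their call, 46 lost the call and 3 reversed. The 3 that reversed were Col18a1 in dividing basal cells, and Col5a1 and Col8a1 in the dividing follicle. The other reversals named below are of values that the main fit did not call. A mitochondrial limit of 5% left 16 resting basal cells in mouse 1 and too few Merkel cells for a sum. Under it the calls fell to 7 for basal against suprabasal cells and to 7 for dividing basal cells (without Col4a6, Col8a1, Col9a3 and Col14a1). They fell to 4 for the difference of the dividing contrasts, and the collagen level over all kept cells was 703.2 CPM. The share of all genes called under this limit is not given here, so these counts do not set the chains apart from other genes. With the Shh-positive class left out, the difference was called for 6 chains, again without the share of all genes. The dividing follicle values then reversed for Col16a1 (-0.92), Col5a1 (-0.024), Col8a1 (-0.14) and Col9a3 (-1.81). With the Pcsk2 and Ackr4 cluster counted as resting basal, the dividing basal values reversed for Col12a1 (0.36) and Col18a1 (0.043), and Col4a5 was no longer called (-0.27). Without integration, Col4a1 in basal against suprabasal cells was -0.52 and past the threshold, Col9a3 in the dividing follicle -0.72 and the Col14a1 difference -1.44. The cause of these changes was not tested. Pairs of chain and class in which over 10% of cells held a UMI numbered 214, and 101 after thinning.

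With the replicate block the 6 comparisons gave 13, 11, 17, 10, 11 and 23 called chains, against 12, 11, 17, 10, 10 and 23 without it, in the order of the report. The shares of all genes called with the block are not given here, so its counts do not set the chains apart from other genes. The 76 values were called from the same 2 mice, so a sign kept in each mouse alone adds no support. Each mouse alone, which allows no test, kept the sign of all 76 values and moved 11 of them over 1.5-fold. These were Col12a1, Col18a1, Col1a1, Col3a1, Col6a2 and Col6a3 in dermal mesenchyme-like cells, Col1a1 and Col1a2 in follicle against basal cells, the Col1a2 difference, Col25a1 in the dividing follicle (3.34 to 5.69) and Col5a1 in basal against suprabasal cells (0.80 to 1.95). Removing likely doublets moved the collagen level of 10 of 24 classes by more than the SD between mice.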
